A study of Arabidopsis thaliana with 6 samples.

Results

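A set of 83 genes of Arabidopsis thaliana was strongly higher in seedlings grown in red light than in dark-grown wild type, and stood part of the way towards that level in dark-grown pifQ mutants. The 83 genes were chosen among 7234 named genes by their measured values: the mean log2 ratio over dark-grown Col-0 had to be at least 1.5 on the red light arrays, and at least 0.25 but under 1 on the pifQ arrays. In all, 91 genes met both limits, and 8 of them were left out by name or position (HPR1, HEME2, CHLM, PIF7, BGLU28 and the loci AT2G43030, AT2G43460 and AT2G44230). Because the choice used both means, the levels below describe the genes and are no test of them.

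Transcripts were measured in seedlings on 6 two-colour arrays, 3 for each of the groups compared. One group was wild-type Col-0 kept for 60 h in continuous red light of 24 μmol per square metre and second, and the other was the pifQ mutant kept for 60 h in darkness. Dark-grown Col-0 of the same age was the second channel (Cy3) of every array, with the sample in Cy5 and no dye swap. All seedlings, the dark ones included, first received 3 days of cold at 4 °C in darkness and 6 h of white light at 100 μmol per square metre and second, on medium with 1% sucrose, and the replicates were grown and harvested independently. The pifQ mutant lacks PIF1, PIF3, PIF4 and PIF5 in every cell; which alleles it carries is not given. None of the 4 mutated genes has a named feature (a spot on the array) here, so the mutant was not checked by its own transcripts.

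PIF proteins are bHLH transcription factors that accumulate in darkness and keep a germinating seedling in its dark form, with a long hypocotyl, closed cotyledons and undeveloped plastids. Light turns phytochrome into its active form, which binds PIF proteins and leads to their degradation. Seedlings without several PIF proteins open their cotyledons and start plastid development in darkness, so the mutant is used to find light responses that the loss of PIF proteins brings about without light. Light acts through further regulators as well.

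Each value is the log2 ratio of a red light or pifQ sample to dark Col-0, and each error is the SD of 3 arrays. Base 2 was assumed, as no source names the base, and the folds rest on it. The arrays of a group were not equally alike. Across the 7234 genes, red light arrays correlated at r = 0.812 to 0.913, pifQ replicates 1 and 2 at 0.615, and pifQ replicate 3 with them at 0.506 and 0.423. With the red light arrays, pifQ replicates 1, 2 and 3 correlated at 0.561 to 0.591, 0.453 to 0.546 and 0.593 to 0.695. Genes are not independent replicates. In whole seedlings, fewer cells of a type and less RNA per cell cannot be told apart. Of the marker lists for other cell types, only FAMA (guard cell lineage, 1 of 6 measured) and EXPA18 (root hairs, 1 of 4 measured) had a value, and no shoot apex, epidermis or vascular marker did. The log2 ratio of FAMA was 0.86 ± 0.05 in red light and 0.19 ± 0.47 in pifQ, and that of EXPA18 was -0.21 ± 0.41 in red light and 0.23 ± 0.13 in pifQ. Their part in the values below was not tested.

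The 83 genes had a median log2 ratio of 1.77 in red light (range 1.503 to 5.02) and 0.74 in pifQ (range 0.26 to 0.99). Over all 7234 genes, the medians were -0.021 in red light and -0.042 in pifQ. On the red light arrays 1, 2 and 3 the members' medians were 1.76, 2.16 and 1.52, and on the pifQ arrays 0.72, 0.63 and 0.78. Red light replicate 2 gave the highest value of its group for 64 of the 83 genes (77.1%), against 36.7% of all genes, and replicate 3 the lowest for 61 (73.5%), against 37.1%. The other genes with a red light mean of at least 1.5 showed the same order: replicate 2 was highest for 60.3% of those with a pifQ mean of at least 1 and 62.1% of those under 0.25, and replicate 3 lowest for 58.6% and 72.4%. Expressed as a share of the red light change, the pifQ mean reached 39.4% at the median (range 5.22% to 59.1%) on the log2 scale. It was under 25% for 17 genes, 25% to under 50% for 53 and at least 50% for 13, and the limits of the rule bound it from above.

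**Figure D1:**
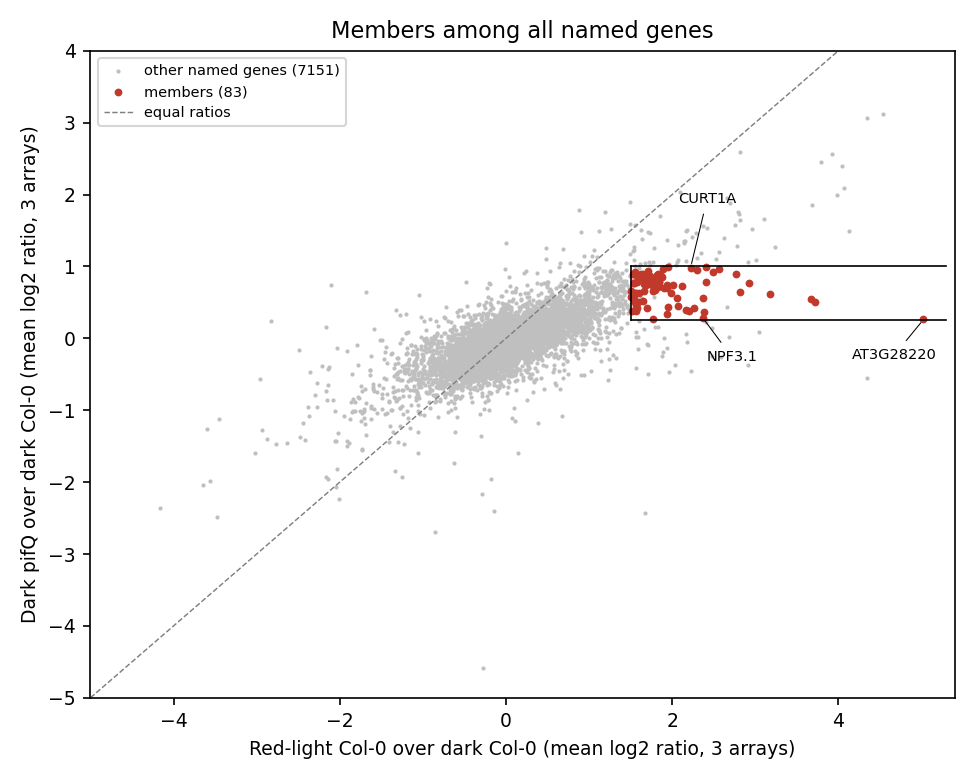
Mean log2 ratio over dark Col-0 on the 3 red light arrays (horizontal axis) and on the 3 pifQ arrays (vertical axis) for each named gene. Each point is a gene, the black lines are the limits of the rule and the dashed line marks equal ratios. The 83 members (red) lie between 0.26 and 0.99 in pifQ, and AT3G28220 lies far to the right of the others at 5.02 in red light.

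By limma with Benjamini-Hochberg adjustment over 7234 genes, 83 of 83 members passed an adjusted p of 0.05 as higher in red light than in dark Col-0, against 18.8% of all genes. In pifQ 41 of 83 were called higher than dark Col-0, against 4.59% of all genes. Between the groups 29 of 83 were called higher in red light than in pifQ, against 2.2% of all genes. The rule used each of these contrasts, so the counts were not read as support. Of the members 17 were called in all 3 comparisons, 24 in pifQ but not between the groups, 12 between the groups but not in pifQ, and 30 in neither. For the 42 genes not called in pifQ, "partly raised" describes the mean of 3 arrays and no more. Dropping 1 array lowered the pifQ count to 5 (pifQ replicate 1), 13 (pifQ replicate 2) or 23 (red light replicate 1), and the share called over all genes fell with it, to 1.30%, 1.52% and 3.06%. The count between the groups was 13, 11 and 48 without pifQ replicates 1, 2 and 3, where 0.871%, 0.871% and 5.03% of all genes were called. It was 12 and 15 without red light replicates 1 and 2, where 0.622% and 0.981% of all genes were called. With quantile normalization it was 7 (0.857% of all genes), with array weights 56 (5.43%), with arrays scaled to the same spread 55 (3.68%) and without the genes nearest 0 it was 53 (4.31% of the genes left).

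All 3 red light arrays lay above all 3 pifQ arrays for 70 of 83 genes, against 13.2% of all genes. The 13 genes whose arrays overlapped were PRXQ, YAB5, AT1G22630, AT2G21185, AT3G08610, AT3G22210, AT3G22230, AT3G47650, AT3G53430, AT3G53890, AT3G56330, AT5G16130 and AT5G61290. All 3 pifQ arrays were above 0 for 66 of 83 genes, against 17.2% of all genes. Every red light array was above 1 for 79 genes. A single pifQ array often left the band that the mean kept to: 52 genes had a pifQ array at 1 or higher, 17 had one below 0, and 15 had all 3 arrays from 0.25 to under 1.

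Of the 83 loci, 7 carry a gene name in the RefSeq annotation, and only for these is a role given. CURT1A, PRXQ, CRR41 and ty2 are plastid proteins, NPF3.1 is a transporter, and YAB5 and AGL87 are transcription factors. AGL87, CRR41, YAB5 and ty2 are described for their annotation, chosen after their values were seen.

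CURT1A (AT4G01150) bends thylakoid membranes at the margins of the grana stacks. Its log2 ratios were 2.41, 2.69 and 1.57 on the red light arrays, and 1.42, 0.68 and 0.85 on the pifQ arrays. The groups did not overlap, although red light replicate 3 and pifQ replicate 1 came within a short distance of each other. The means were 2.22 ± 0.58 in red light (4.66-fold) and 0.98 ± 0.39 in pifQ (1.98-fold), so pifQ reached 44.3% of the red light change.

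CRR41 (AT1G51100) is needed in the plastid stroma to assemble the NADH dehydrogenase-like complex of cyclic electron flow. It stood at 1.93, 2.20 and 1.37 in red light, against 0.64, 1.28 and 0.78 in pifQ. The highest pifQ array, replicate 2, was just under the lowest red light array. On average CRR41 had 1.83 ± 0.43 in red light (3.56-fold) and 0.90 ± 0.34 in pifQ (1.87-fold), a share of 49.1%.

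PRXQ (AT3G26060), peroxiredoxin Q, reduces peroxides in the plastid with electrons from thioredoxin. Its red light values were 1.73, 1.98 and 1.51, and its pifQ values 0.99, 1.52 and -0.066. The groups overlapped by a small margin, as pifQ replicate 2 lay just above the lowest red light array, and pifQ replicate 3 was below 0. The pifQ mean of 0.81 ± 0.81, against 1.74 ± 0.24 in red light, therefore covers arrays from no increase to a near-complete one.

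ty2 (AT1G43560), thioredoxin y2, is a plastid thioredoxin, a small protein that reduces disulfides of its targets. It had 1.55, 2.06 and 1.09 in red light and 0.74, 0.34 and 0.82 in pifQ. All pifQ arrays were above 0 and below the lowest red light array. The means were 1.57 ± 0.48 and 0.63 ± 0.26, a share of 40.2%.

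A list of 6 plastid thioredoxins and peroxiredoxins had 3 measured genes: PRXQ, thioredoxin m2 (AT4G03520) and AT3G11630. All 3 were called higher in red light (18.8% of all genes) and 1 in pifQ (4.59%), with list medians of log2 1.12 in red light and 0.81 in pifQ. AT3G11630, the gene called in pifQ, stood at 1.12 ± 0.32 in red light and 0.85 ± 0.60 in pifQ. Thioredoxin m2 stood at 0.63 ± 0.21 in red light and 0.39 ± 0.34 in pifQ. Both were under the red light limit and are no members. Over all 23 lists of light, plastid and marker genes, 31 of 253 genes were measured, 27 were called higher in red light and 13 in pifQ, and PRXQ was the only member.

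NPF3.1 (AT1G68570) belongs to the NRT1/PTR family of membrane transporters. It had log2 ratios of 2.49, 2.72 and 1.89 in red light, against -0.026, -0.047 and 0.93 in pifQ. On pifQ replicates 1 and 2 it stood at the level of dark Col-0, and replicate 3 alone carried its pifQ mean of 0.29 ± 0.56 over the limit. With a red light mean of 2.37 ± 0.43 (5.16-fold), its share of 12.1% was among the 5 lowest.

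YAB5 (AT2G26580) is a YABBY transcription factor of lateral organs such as leaves. The red light values were 1.98, 2.00 and 1.09, and the pifQ values 0.82, 0.25 and 1.38. The groups overlapped, since pifQ replicate 3 was above red light replicate 3. Means were 1.69 ± 0.52 in red light and 0.82 ± 0.57 in pifQ.

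AGL87 (AT1G22590) is a member of the MADS-box family of transcription factors. It stood at 1.98, 2.50 and 1.34 in red light and at 0.41, 0.67 and 1.01 in pifQ. The groups did not overlap, with means of 1.94 ± 0.58 and 0.70 ± 0.30.

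The other 76 genes have a locus identifier only, with no name or role in the annotation used here. AT3G28220 had the largest red light change: 5.03, 5.29 and 4.75 in red light, against -0.14, 0.60 and 0.33 in pifQ. Its red light mean of 5.02 ± 0.27 (32.5-fold) went with a pifQ mean of 0.26 ± 0.37 (1.20-fold), the lowest share of the set at 5.22%. One pifQ array was below 0 and the mean lay just inside the lower limit.

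AT3G28270, next in red light, had 3.55, 3.90 and 3.70 in red light and 0.69, 0.61 and 0.21 in pifQ. AT1G60590 followed with 3.72, 3.56 and 3.73 in red light and 0.70, 0.40 and 0.57 in pifQ. Both had all pifQ arrays above 0 and a narrow spread in each group, at 3.72 ± 0.18 and 0.50 ± 0.26 for AT3G28270 and 3.67 ± 0.096 and 0.55 ± 0.15 for AT1G60590. Their folds over dark Col-0 were 13.1 in red light and 1.41 in pifQ for AT3G28270, and 12.7 in red light and 1.47 in pifQ for AT1G60590.

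AT4G19530 had 3.44, 3.27 and 2.81 in red light and 0.69, 0.26 and 0.89 in pifQ. AT4G18740 had 3.07, 3.23 and 2.48 in red light and 0.67, 0.29 and 1.34 in pifQ. AT1G18810 had 2.96, 2.86 and 2.63 in red light and 0.30, 0.36 and 1.25 in pifQ. In all of these the groups were far apart, and pifQ replicate 3 was the highest of its group. The differences between red light and pifQ were log2 2.56 for AT4G19530 (5.91-fold), 2.16 for AT4G18740 (4.48-fold) and 2.18 for AT1G18810 (4.53-fold).

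AT5G64850 stood out among the genes near the upper pifQ limit for its even pifQ values, 1.07, 1.08 and 0.74, against 2.38, 3.09 and 2.21 in red light. AT4G33660 had 1.41, 1.25 and 0.33 in pifQ, with 1.92, 3.06 and 2.24 in red light. In AT4G33660 pifQ replicate 3 was far below the other arrays of its group. The means were 2.56 ± 0.47 in red light and 0.97 ± 0.19 in pifQ for AT5G64850, and 2.41 ± 0.59 and 0.99 ± 0.58 for AT4G33660.

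Low pifQ values beside a clear red light change were also seen in AT1G75460, with 2.43, 2.51 and 2.22 in red light and 0.72, -0.0088 and 0.41 in pifQ. AT4G12830 had 2.34, 2.12 and 2.32 in red light and 0.50, 0.60 and 0.17 in pifQ. AT1G23205 had 1.95, 2.59 and 1.95 in red light and 0.44, 0.52 and 0.23 in pifQ. None of these 3 genes was called in pifQ, and each was called higher in red light than in pifQ, with shares of 15.6%, 18.7% and 18.2%. AT4G04750 was called in both comparisons, at 2.32, 2.17 and 2.61 in red light and 0.67, 0.85 and 0.16 in pifQ, with a share of 23.7%.

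AT3G51660 had 1.84, 2.94 and 1.82 in red light and -0.084, 0.078 and 1.14 in pifQ. AT3G56220 had 2.61, 3.01 and 1.60 in red light and 0.64, 0.38 and 1.32 in pifQ. AT1G04350 had 2.21, 1.80 and 2.34 in red light and 0.97, 1.25 and -0.044 in pifQ. The groups stayed apart in each, but pifQ replicate 3 set the spread: it was the highest pifQ array for AT3G51660 and AT3G56220 and the lowest for AT1G04350. The pifQ means were 0.38 ± 0.67, 0.78 ± 0.48 and 0.72 ± 0.68.

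**Figure D2:**
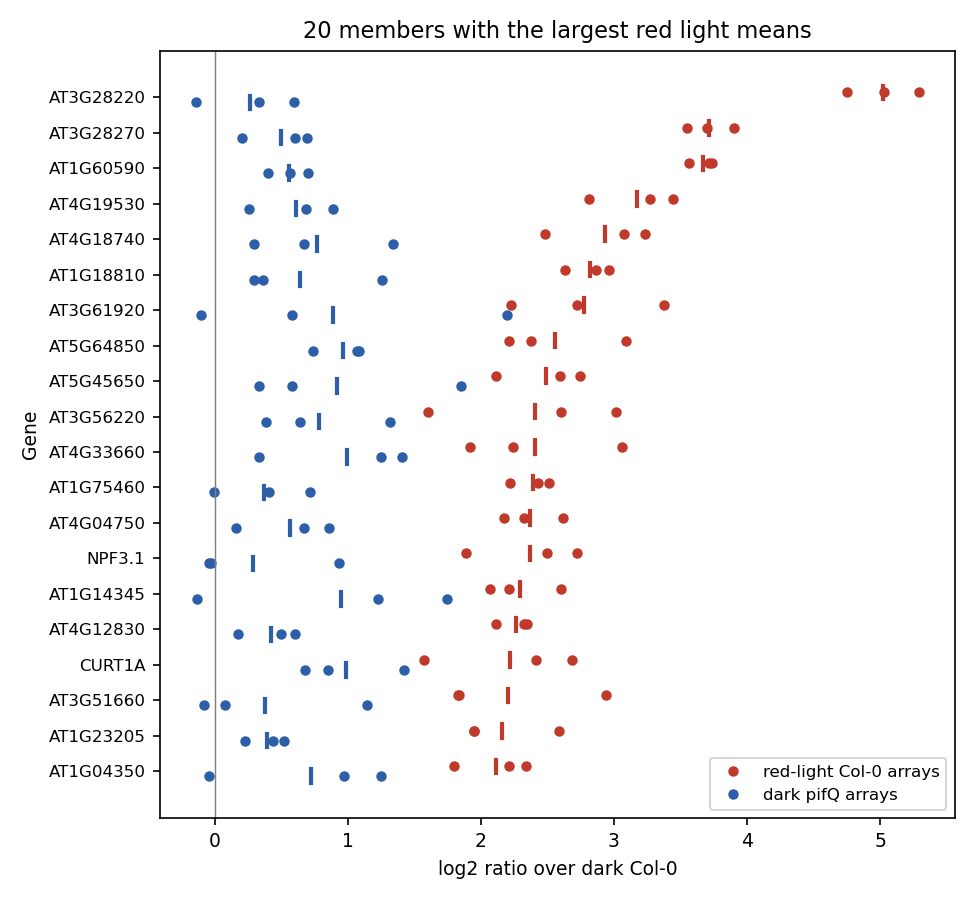
log2 ratio over dark Col-0 (horizontal axis) on each red light array (red points) and each pifQ array (blue points) for the 20 members with the largest red light means, largest at the top; short vertical bars are the means of 3 arrays. Red and blue points do not overlap for any of the 20 genes, and the blue points of AT3G61920 reach from -0.10 to 2.20.

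In the remaining 63 genes the red light means lay between 1.503 and 2.07. Those with the highest shares were AT3G08610 at 59.1%, AT4G34220 at 58.5%, AT3G47650 at 57.2%, AT3G53890 at 55.5% and AT4G02850 at 55.1%. AT4G34220 showed 1.55, 1.57 and 1.47 in red light and 1.33, 0.65 and 0.71 in pifQ, so its groups came close without overlap. AT3G08610 showed 1.37, 2.23 and 1.05 in red light and 0.83, 0.64 and 1.28 in pifQ, with pifQ replicate 3 above red light replicate 3. AT3G53890 overlapped too, at 1.58, 2.38 and 0.91 in red light and 0.39, 1.02 and 1.30 in pifQ. The pifQ means of AT3G08610, AT4G34220 and AT3G53890 (0.92, 0.90 and 0.90) differ by less than the SD of their pifQ arrays (0.33, 0.38 and 0.46). Their shares also carry the spread of the red light arrays (SD 0.61, 0.053 and 0.74), so the order of these 3 shares is uncertain. AT4G02850 had 1.40, 1.92 and 1.41 in red light and 0.63, 0.63 and 1.35 in pifQ, which did not overlap. At the other end, AT4G27570 had 2.01, 1.24 and 2.06 in red light and -0.11, 0.098 and 0.81 in pifQ, a share of 15.0%.

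The position of pifQ replicate 3 within its group varied between members. It was the highest pifQ array for 37 genes (44.6%), the lowest for 33 (39.8%) and between the others for 13 (15.7%), against 37.3%, 32.3% and 30.4% of all genes. The medians that follow describe genes sorted by that position, which fixes their order. Where replicate 3 was highest, the members' medians on pifQ replicates 1, 2 and 3 were 0.41, 0.41 and 1.25. Where it was lowest, they were 0.97, 0.86 and 0.23. The red light medians of these gene groups were close to each other, at 1.71 and 1.78. NPF3.1, YAB5, AGL87 and ty2 belong to the first kind and PRXQ to the second, while CURT1A and CRR41 had replicate 3 between the others.

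The widest pifQ spread was that of AT3G61920, with -0.10, 0.58 and 2.20 in pifQ and 2.72, 3.37 and 2.23 in red light. On replicate 3 this gene nearly reached its red light level, and on replicate 1 it was at that of dark Col-0. AT1G14345 went the other way, with 1.23, 1.74 and -0.13 in pifQ, against 2.07, 2.60 and 2.21 in red light. AT5G45650 (0.34, 0.58 and 1.85 in pifQ) and AT3G56330 (-0.40, 0.30 and 1.26) followed AT3G61920, and AT3G47650 (0.75, 1.86 and 0.062) followed AT1G14345. The narrowest pifQ spreads were those of AT4G00810 (0.72, 0.58 and 0.81), AT2G03420 (0.75, 0.48 and 0.68), AT1G60590, AT1G23205 and AT4G11175 (1.03, 0.73 and 0.80). For these 5 genes the pifQ SD lay between 0.11 and 0.16.

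**Figure D3:**
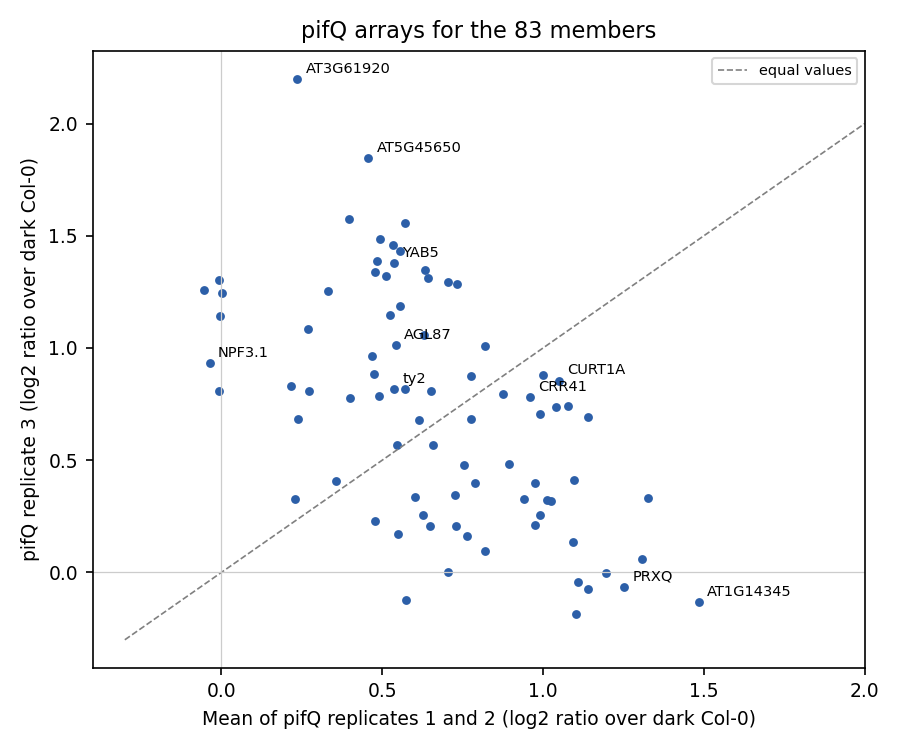
Mean log2 ratio over dark Col-0 on pifQ replicates 1 and 2 (horizontal axis) and the ratio on pifQ replicate 3 (vertical axis), 1 point for each of the 83 members; the dashed line marks equal values. Points lie on both sides of the line, with AT3G61920 and AT5G45650 high on replicate 3 and AT1G14345 and PRXQ below 0 on it.

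Across the 83 members, pifQ replicates 1 and 2 correlated at r = 0.486, while replicate 3 correlated with them at -0.459 and -0.519. Over all 7234 genes all of these were above 0. A rule that holds the mean of 3 arrays within a narrow band pushes correlations between them down, and the arrays share dark Col-0 as reference, so these values describe the set only. With pifQ replicate 3 left out, 64 genes met the rule, 57 of them members. Leaving out red light replicate 3 gave 138 genes, which included all 83 members.

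Arrays left out of the choice give values that the rule did not use. When genes were chosen by the same limits without pifQ replicate 1, 2 or 3, 89, 77 and 64 genes were found. On the left-out pifQ array 83, 71 and 60 of them were above 0, or 93.3%, 92.2% and 93.8%, against 43.9%, 42.1% and 46.3% of all genes outside the names left out. Their medians there were 0.83, 0.70 and 0.81, each above the 0.73, 0.66 and 0.62 on the arrays that chose them, and most so for replicate 3. Values on the left-out array reached from -0.68 to 2.12, wider than the band of the rule. In 81, 66 and 58 genes the left-out pifQ array was below all red light arrays, against 37.4%, 41.1% and 29.0% of all genes. Here the red light side had been chosen to be high. The counts above 0 carry that limit too, which all genes were not held to. Among genes with a red light mean of at least 1.5, all 58 with a pifQ mean of at least 1 were above 0 on each pifQ array. So were 76, 79 and 76 of the 83 members on replicates 1, 2 and 3, and 19, 12 and 7 of the 29 genes under 0.25. The gap to all genes is thus no measure of the pifQ limit alone. Without red light replicate 1, 2 or 3 the choice found 88, 63 and 138 genes, and the medians on the left-out array were 1.67, 2.12 and 1.27, against 1.78, 1.79 and 1.73 on the choosing arrays. Red light replicate 3 thus gave lower values than the arrays that chose, and replicate 2 higher ones. The number of separate dark Col-0 extracts is unknown, so a left-out array may share its reference sample with the others.

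Genes as strongly raised in red light fell into 3 classes by their pifQ mean. Of 170 genes with a red light mean of at least 1.5, the 83 members lay in the middle, 58 had a pifQ mean of at least 1 and 29 one under 0.25, of which 16 were below 0. The red light medians were 1.77 for the members, 2.21 for the genes with more in pifQ and 1.90 for those with less. On pifQ replicates 1, 2 and 3 the genes at 1 or more had medians of 1.64, 1.51 and 1.02, and the genes under 0.25 had 0.11, -0.037 and -0.28. In both of these classes pifQ replicate 3 was the lowest array for most genes, 41 of 58 and 21 of 29, compared with 33 of 83 members. The classes were cut from the same values, so this contrast was not tested.

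**Figure D4:**
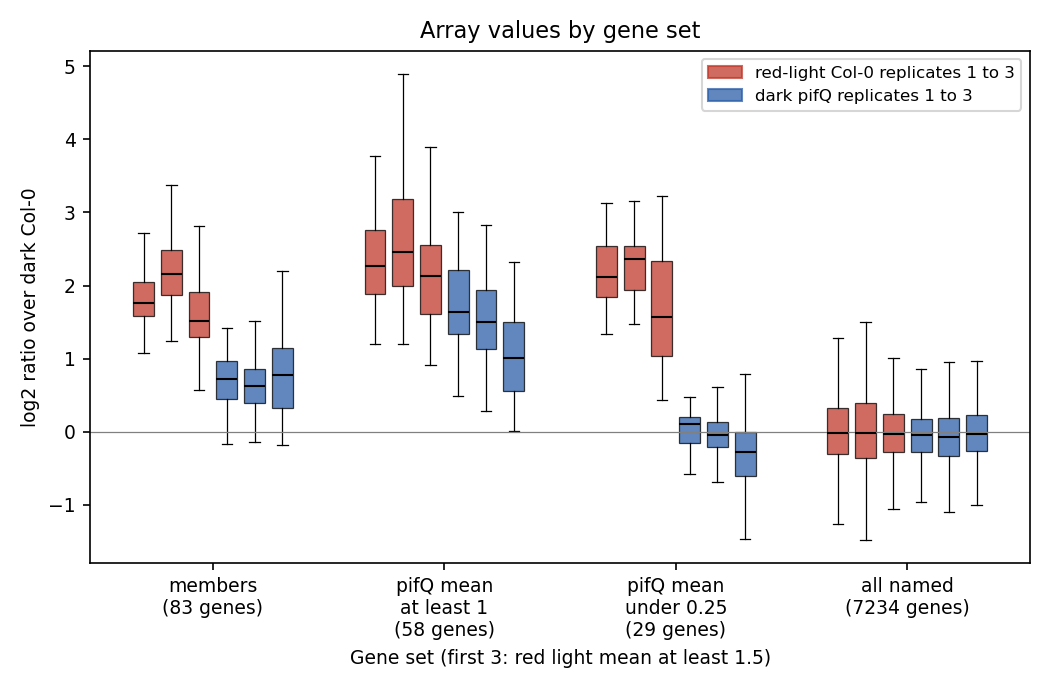
log2 ratio over dark Col-0 (vertical axis) on each red light array (red) and each pifQ array (blue), replicates 1 to 3 from left to right, for the members, for the other genes with a red light mean of at least 1.5, split by pifQ mean, and for all 7234 genes. Boxes span the quartiles with the median as a line and whiskers reach the last value within 1.5 box heights; values beyond them are not drawn. Replicate 3 of pifQ has the highest pifQ median among the members (0.78) and the lowest in the other light-raised classes (1.02 and -0.28).

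The limits cut through a continuous range. Just inside the lower pifQ limit lay AT3G28220 (0.26), AT4G27570 (0.27) and NPF3.1 (0.29), and just outside it AT1G07050 (0.24), the flavonoid glucosyltransferase gene UGT78D2 (0.22) and AT5G07475 (0.16). Just inside the upper pifQ limit lay AT4G33660 (0.99), AT2G34510 (0.99) and CURT1A (0.98), and just outside it AT1G70600, AT1G60000 (1.01 each) and AT3G02120 (1.02). At the red light limit AT4G10300 (1.503), AT1G15140 (1.51) and AT3G56330 (1.52) were members, and AT1G74070 (1.4997), AT1G78995 (1.4993) and AT4G16720 (1.4963) were not. The distances between these neighbours are far smaller than the SD of their arrays.

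AT1G58983 and AT5G36710 were each measured by 2 features, and the other 81 members by 1. For AT1G58983 the red light means of the features were 1.63 and 1.60 and the pifQ means 0.99 and 0.70. For AT5G36710 they were 1.73 and 1.36 in red light and 0.94 and 0.59 in pifQ. The features of a gene thus differed by less in red light than in pifQ for AT1G58983, and by about as much in both groups for AT5G36710. The AT5G36710 feature at 1.36 was under the red light limit by itself. Its groups overlapped, with red light replicate 3 at 1.08 and pifQ replicate 3 at 1.19. So did those of the AT1G58983 feature at 1.63, with red light replicate 2 at 1.40 and pifQ replicate 3 at 1.51.

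By chromosome, 24, 10, 22, 15 and 12 members lie on chromosomes 1 to 5, or 28.9%, 12.0%, 26.5%, 18.1% and 14.5%, where all named genes have 26.8%, 14.9%, 19.9%, 14.8% and 23.6%. No member is the next protein-coding gene to another. Of pairs with at most 4 genes between them there were 5: AT3G28220 with AT3G28270, AT2G34460 with AT2G34510, AGL87 with AT1G22630, CRR41 with AT1G51080, and AT3G22210 with AT3G22230. The first pair holds the members with the 2 largest red light changes. AT1G51080, with 1 gene between it and CRR41, had 1.76 ± 0.20 in red light and 0.65 ± 0.17 in pifQ, beside 1.83 ± 0.43 and 0.90 ± 0.34 for CRR41. The same limits hold for both genes, so likeness of their means follows in part from the rule. Genes lying between the members of a pair were measured in 2 cases, and neither met the rule. AT1G22610, between AGL87 and AT1G22630, had means of 0.35 in red light and -0.24 in pifQ, and AT2G34480, between AT2G34460 and AT2G34510, had 0.90 in red light and 0.49 in pifQ.

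Outside the members, the genes whose 6-array pattern was most like the members' median were AT4G28070 (r = 0.993), AT5G62140 (0.989) and AT4G27390 (0.988). This likeness takes no account of level. AT4G28070 had 1.05, 1.20 and 0.77 in red light and 0.10, 0.093 and 0.16 in pifQ. AT5G62140 had 1.15, 1.57 and 1.01 in red light and -0.14, 0.015 and -0.032 in pifQ, and thus stood at the level of dark Col-0 in the mutant. AT4G27390 had 0.75, 1.08 and 0.62 in red light and 0.23, 0.10 and 0.096 in pifQ.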

How the data were processed

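The deposited table holds 1 log2 ratio per feature and array. The direction, sample (Cy5) over dark Col-0 (Cy3), comes from titles and dyes per the labels, and base 2 was inferred from the values' range. limma is named without a version, per the submitters' processing notes; no source describes background correction, normalization or filters. Without intensities, dim or saturated spots could not be marked, and precision is limited by how many arrays there are. Of 45220 features, 7440 carry a gene name, and all matched TAIR10.1 by gene identifier; they stand for 7234 genes, with features averaged per array.

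Two-sided limma tests (version 3.58.1, lmFit and eBayes, in R 4.3.3) used 1 coefficient per group over 6 arrays; p-values were Benjamini-Hochberg adjusted over the 7234 genes, with 0.05 as threshold. The fit was first tested on simulated data. Ratios against dark Col-0 were tested against 0. The control's own spread enters these tests only as far as the arrays used separate dark Col-0 extracts, whose number is unknown. Same-numbered arrays of the groups did not deviate together (r = -0.176, -0.148 and -0.167). Arrays with other numbers did so weakly: r was 0.241 for red light 1 with pifQ 3 and 0.182 for red light 2 with pifQ 1. For red light 3 with pifQ 2 it was 0.256, and the remaining pairings lay from -0.111 to -0.012. Deviations were taken from the group mean and sum to 0 within a group, so these values are tied to each other and are no separate observations. Whether arrays that deviated together share a batch or a reference sample was not tested. Members and lists were chosen with earlier results of these data known. Members were named for the 20 largest red light means, list membership, the 5 highest and lowest shares, the 5 widest and narrowest pifQ SDs, several features, adjacent members (none) or closeness to a limit; annotated members, those with overlapping arrays and the near pairs were added after their values were seen. Sequences were not used here.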

Additional observations from a re-analysis of the deposited data

Results flagged for a closer look

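Among the 37780 features without a gene name, which the report does not use, 229 met the same limits (red light mean of at least 1.5 and pifQ mean from 0.25 to under 1), 0.606% of them, against 1.25% of the named features. Their median log2 ratios were 1.77 in red light and 0.67 in pifQ, beside 1.76 and 0.74 for the named features within the limits. They are listed because features left out of every comparison above met the limits too. Their levels follow from that choice and were not read as support.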

How the results depend on the processing

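All 83 members passed in red light under each alternative run, or 81 of 81 among genes with 1 feature. With quantile normalization 27 genes met the rule (26 of them members), the members' pifQ median was 0.94, their share of the red light change 59.6%, 59 were called in pifQ (6.54% of all genes, against 4.59%) and 7 between red light and pifQ (0.857%, against 2.2%). That last count was 56 with array weights (5.43% of all genes), 55 with arrays scaled to the same spread (3.68%), 53 without the genes nearest 0 (4.31%) and 21 with a replicate block (1.27%). Leaving out each array in turn gave 63 to 138 genes by the rule, 5 to 47 members called in pifQ and 11 to 48 between the groups (1.30% to 5.06% and 0.622% to 5.03% of all genes), medians of 1.65 to 1.96 in red light and 0.63 to 0.74 in pifQ, and shares of 35.3% to 46.0%. The cause was not tested. Among the named members' means, 31 of 1036 values moved by more than 1 SD, and none of those called changed sign. Under quantile normalization 24 moved and 56 did not, and under equal spread 7 moved and 73 did not. Leaving out 1 of 3 arrays, or taking their median, cannot move a mean by more than 1 SD of those arrays. For these settings the lack of moved values was fixed in advance, so 31 of 1036 is no measure of stability. With 3 arrays a group and no intensities, differences between single members smaller than the SD of their arrays could not be told apart.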
